A study of Mus musculus with 12 samples.

Results

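The 8 genes described here are the Kupffer cell genes Clec4f, Vsig4, Marco, Cd5l and Timd4 and the complement genes C1qa, C1qb and C1qc. They were taken by name from a count table of 54532 mouse genes and read in all 12 libraries. Male mice had received an AAV8 vector through the tail vein at 10 weeks of age and then a low-fat diet, and liver and subcutaneous fat were sequenced 16 weeks after the injection. The hHKDC1 OE mice received AAV8-TBGp with human HKDC1, a hexokinase family gene, and the null mice received AAV8-TBGp without it, so both groups carried the vector and ate the same diet. The TBG promoter drives expression in hepatocytes and is not meant to drive it in macrophages. The 4 groups (liver null, liver hHKDC1 OE, fat null and fat hHKDC1 OE) held 3 libraries each. The study's supplement counts the fat samples as separate mice. The sources used here do not say this of the liver libraries, whose p-values may cover technical spread only, nor whether liver and fat libraries of the same number share a mouse. The strain was not given in the sources used here. In each tissue the descriptions call hHKDC1 OE replicates 2 and 3 knockouts while their titles and treatments say overexpression, and results are therefore also given for replicate 1 alone.

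The libraries held 15496019 to 19954971 counts, and 1 CPM (the unit of counts scaled to library size within a tissue) stood for 15.35 to 21.11 counts. Albumin and other hepatocyte markers summed to 124066 ± 1835 CPM (SD, n = 3) in null liver, and adipocyte markers to 20807 ± 3102 CPM (SD, n = 3) in null fat. Fat libraries also held counts of the 10 hepatocyte markers, at 1905 to 9991 CPM in sum. Cyp2e1 gave 1578 of 5967 CPM of this sum in null fat and 1144 of 2598 in hHKDC1 OE fat (group means). The source of these transcripts was not tested. Mouse Hkdc1 had 0 to 8 counts in each library, and this row does not check the human transgene. The human HKDC1 transcript was not analysed here.

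Kupffer cells are the resident macrophages of the liver sinusoids. Clec4f encodes a galactose-binding C-type lectin that is a standard mouse Kupffer cell marker, and Vsig4 encodes a receptor for complement C3 fragments. Marco encodes a scavenger receptor for bacteria and particles, Cd5l a secreted protein that protects macrophages from apoptosis, and Timd4 a phosphatidylserine receptor that takes up apoptotic cells. Marco and Timd4 are also made by macrophages of other organs, among them the spleen and lymph nodes. C1qa, C1qb and C1qc encode the A, B and C chains of C1q, the recognition unit of the classical complement pathway, which macrophages of most tissues produce and in which the chains are assembled in equal numbers.

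In GRCm38 the 8 genes lie on 6 chromosomes, and the C1q genes sit together on the minus strand of chromosome 4. C1qa spans chr4:136895917-136898803, C1qc chr4:136889804-136893065 and C1qb chr4:136880129-136886187, which places the 3 genes within 18675 bp. Clec4f lies at chr6:83644542-83656187, Vsig4 at chrX:96247203-96293438, Marco at chr1:120474538-120505024, Cd5l at chr3:87357881-87371073 and Timd4 at chr11:46810800-46844332. Each is protein-coding, and no other annotated gene overlaps any of them, so counting without strand does not mix them with a neighbour.

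Promoters (250 bases before to 50 after the start, RefSeq, GRCm38.p6) were at hand for 7 of the 8 genes, without C1qa. They are shown for the C1q genes, whose values went together across libraries, and for the 3 genes that differed most in fat. Capitals mark GAGGAA or its reverse complement TTCCTC, the core of PU.1 sites, PU.1 being the ETS factor of macrophages.
C1qb chr4:136886151-136886450, minus strand: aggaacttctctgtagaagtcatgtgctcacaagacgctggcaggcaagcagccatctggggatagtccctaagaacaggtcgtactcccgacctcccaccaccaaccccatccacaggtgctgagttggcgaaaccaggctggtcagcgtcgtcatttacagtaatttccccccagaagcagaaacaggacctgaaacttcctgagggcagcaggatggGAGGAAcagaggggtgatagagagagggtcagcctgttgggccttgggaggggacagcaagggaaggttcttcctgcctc
C1qc chr4:136892865-136893164, minus strand: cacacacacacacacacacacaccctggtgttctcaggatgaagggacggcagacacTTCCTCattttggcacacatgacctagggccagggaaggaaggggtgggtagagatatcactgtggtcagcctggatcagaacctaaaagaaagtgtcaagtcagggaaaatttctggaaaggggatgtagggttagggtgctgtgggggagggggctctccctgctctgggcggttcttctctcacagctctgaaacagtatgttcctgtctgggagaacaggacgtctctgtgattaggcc
Marco chr1:120504975-120505274, minus strand: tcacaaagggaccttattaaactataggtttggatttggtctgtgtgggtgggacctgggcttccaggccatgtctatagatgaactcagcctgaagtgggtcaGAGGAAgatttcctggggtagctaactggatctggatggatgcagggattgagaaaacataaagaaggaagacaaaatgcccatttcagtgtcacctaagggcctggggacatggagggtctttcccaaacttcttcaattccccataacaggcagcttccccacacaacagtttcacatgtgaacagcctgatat
Cd5l chr3:87357631-87357930, plus strand: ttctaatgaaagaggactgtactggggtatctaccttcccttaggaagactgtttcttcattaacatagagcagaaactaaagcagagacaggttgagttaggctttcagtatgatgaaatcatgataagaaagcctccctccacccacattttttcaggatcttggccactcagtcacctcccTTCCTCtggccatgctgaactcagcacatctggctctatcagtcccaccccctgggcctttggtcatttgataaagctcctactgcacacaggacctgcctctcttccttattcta
Timd4 chr11:46810549-46810848, plus strand: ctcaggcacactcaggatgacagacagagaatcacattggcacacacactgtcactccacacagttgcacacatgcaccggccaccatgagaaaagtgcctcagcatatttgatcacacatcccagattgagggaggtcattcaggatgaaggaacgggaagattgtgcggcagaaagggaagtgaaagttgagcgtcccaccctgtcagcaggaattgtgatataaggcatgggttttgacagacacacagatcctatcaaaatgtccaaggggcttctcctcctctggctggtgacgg
GAGGAA in either direction was found in 5 of the 7 promoters, with 2 matches in Vsig4 and 1 each in Marco, Cd5l, C1qb and C1qc, while 28.3% of 32851 mouse promoters held it. The E-box CACGTG was in none of the 7 and in 7.15% of all promoters. These matches describe letters in the window and no binding was measured.

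In null mice the 5 Kupffer cell genes were low in fat and the C1q genes were not (Clec4f was 0.728 ± 0.686 FPKM in fat and 28.2 ± 8.55 in liver, C1qb 51.7 ± 23.3 and 31.5 ± 10.4; SD, n = 3). FPKM are counts divided by gene length and depth, scaled over all 12 libraries. Of the 8 members, 4 were lower in null fat than in null liver at an adjusted p under 0.05, where 30.5% of the 15259 genes tested were lower and 33.8% were higher. In the quasi-likelihood test of edgeR, Benjamini-Hochberg adjusted, the log2 fold change of fat over liver was -5.32 for Clec4f (adjusted p 0.000176), -4.61 for Cd5l (3.95e-05), -4.45 for Vsig4 (0.000527) and -1.33 for Timd4 (0.0478). Marco had -2.32 (adjusted p 0.0555, edgeR). With 1 library left out Marco ran from -2.86 (without liver null replicate 1, adjusted p 0.0107) to -0.65 (without liver null replicate 3, adjusted p 0.459), and it was also called by DESeq2 (0.0157) and by edgeR without the filter on low counts (0.0130). For C1qa, C1qb and C1qc the values were 0.30, 0.65 and 0.46 (adjusted p 0.569, 0.149 and 0.245, edgeR), with standard errors of 0.43, 0.36 and 0.32. The call of Timd4 held in 3 of 14 other settings, and the adjusted p of Timd4 ran from 0.0332 to 0.447 over them. By library size alone, without TMM, the median gene moved from 0.09 to 0.98, and C1qb and C1qc were then called higher in fat. C1qb was also called without the filter on low counts (adjusted p 0.0441, edgeR) and without fat null replicate 2 (0.0259).

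The other genes of the lists are read against the same 33.8% higher and 30.5% lower of all genes. Of 9 other Kupffer cell genes tested, 5 were called lower and 1 higher in null fat, and Slc40a1 (-4.15), C6 (-3.66), Clec1b (-3.24) and Il18bp (-1.72) had the smallest p (log2 fold changes of fat over liver). Of 14 pan-macrophage genes 4 were called higher and 3 lower, no larger shares than over all genes, with Mpeg1 at -1.58, Lyz2 at 1.62 and Mertk at 0.95. Of 17 other complement genes 5 were called higher and 10 lower, with the endothelial gene Cd93 at 3.75, C1ra at -2.41 and C3 at -3.44.

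Per length, the order of the members differed between the tissues. In null liver the mean FPKM fell from C1qa (37.8 ± 19.8) through C1qb (31.5 ± 10.4), Clec4f (28.2 ± 8.55), Cd5l (26.6 ± 8.63), C1qc (15.7 ± 5.85) and Vsig4 (10.5 ± 2.47) to Marco (2.25 ± 2.71) and Timd4 (1.53 ± 0.702; SD, n = 3 for each). Only Vsig4 and Marco were neighbours in this order with separate ranges. In null fat C1qb and C1qa (48.8 ± 22.6) stood above C1qc (22.6 ± 7.54), and a gap without overlap separated C1qc from the other 5 genes, which had means of 0.470 to 1.13 FPKM with overlapping ranges. In hHKDC1 OE fat Marco (41.2 ± 40.0 FPKM) stood at the level of C1qc (40.9 ± 4.35), and Timd4 (15.1 ± 12.4) and Cd5l (14.4 ± 10.6) stood between these and Clec4f (0.694 ± 0.307) and Vsig4 (0.343 ± 0.163). In hHKDC1 OE liver each gene overlapped its neighbours in the order.

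**Figure D1:**
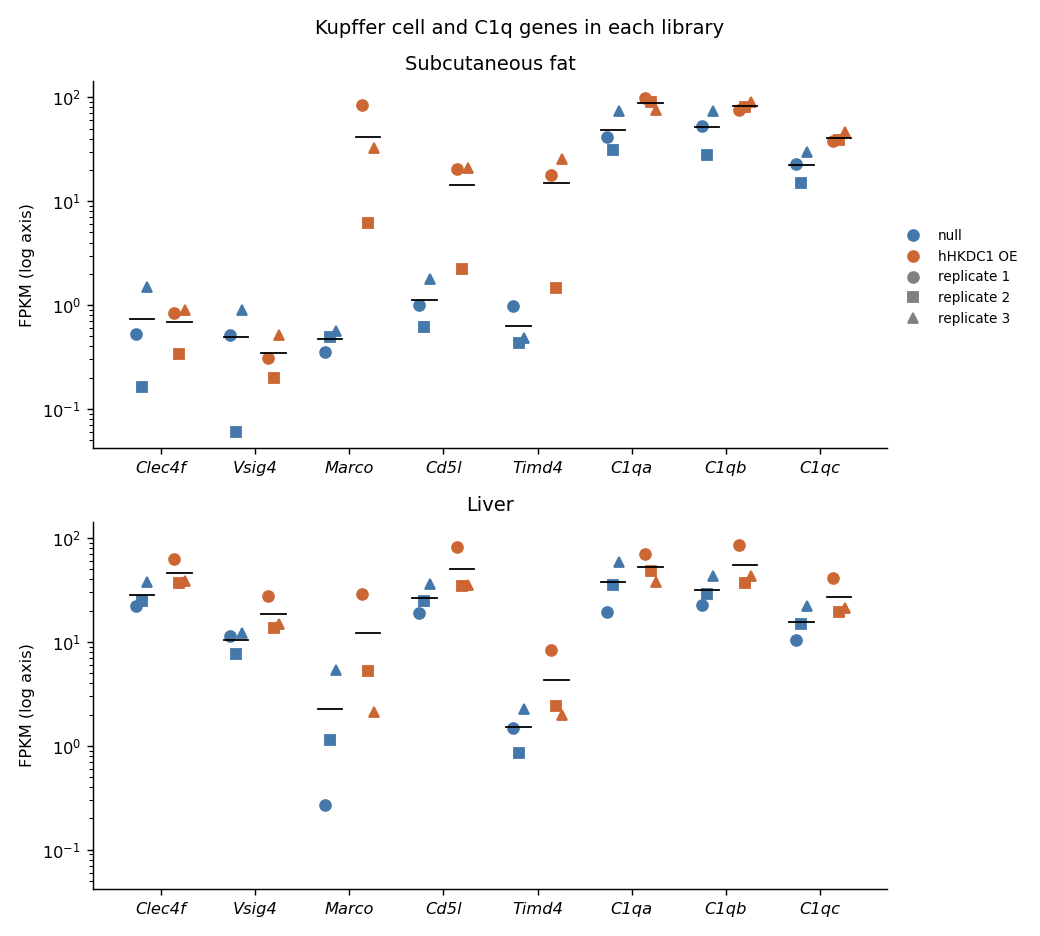
FPKM of the 8 genes in each library on a log axis, with subcutaneous fat above and liver below, null in blue and hHKDC1 OE in orange, the symbol giving the replicate number and the black line the group mean. In null fat the 5 Kupffer cell genes had means of 0.470 to 1.13 FPKM while the C1q genes had 22.6 to 51.7, and in hHKDC1 OE fat all Marco, Cd5l and Timd4 values lay above the null values, replicate 2 of Cd5l (2.20 FPKM against up to 1.77) and Timd4 (1.47 against up to 0.973) by little.

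In liver all 8 genes had a positive log2 fold change of hHKDC1 OE over null, which 51.1% of the 13351 genes tested had, and none passed an adjusted p of 0.05 by the quasi-likelihood test of edgeR, Benjamini-Hochberg adjusted (0% of all genes did in either direction). At an unadjusted p under 0.05, 7 of the 8 were higher against 3.89% of all genes. The median log2 fold change of the 8 was 0.84, and that of all genes 0.01. In bulk tissue, more cells of a type and more RNA per cell cannot be told apart.

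Clec4f was 38.7, 45.0 and 70.0 CPM in null liver replicates 1 to 3 and 114, 70.1 and 71.1 in hHKDC1 OE liver. Vsig4 was 12.2, 8.40 and 13.6 CPM in null and 30.2, 15.3 and 16.5 in hHKDC1 OE. In CPM the hHKDC1 OE libraries lay above all null libraries in these 2 genes, as in 6.31% of all genes. For Clec4f this rests on the scale, since in FPKM hHKDC1 OE replicate 2 (37.2) was below null replicate 3 (37.9), while Vsig4 stayed apart. The log2 fold changes were 0.73 ± 0.26 (standard error) for Clec4f and 0.85 ± 0.29 for Vsig4, with adjusted p of 0.608 and 0.606 (quasi-likelihood test of edgeR, Benjamini-Hochberg adjusted). The exact two-sided permutation test gave 0.1 for both, the smallest value that 3 libraries against 3 allow. For the other members the same test gave 0.2 (Marco, Timd4 and C1qb), 0.3 (Cd5l and C1qc) and 0.4 (C1qa).

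Cd5l was 27.6, 37.3 and 54.7 CPM in null liver and 122, 53.2 and 54.2 in hHKDC1 OE liver. Timd4 was 2.29, 1.37 and 3.66 CPM in null and 13.4, 4.04 and 3.25 in hHKDC1 OE. Marco was 0.371, 1.63 and 7.69 CPM in null and 41.3, 7.77 and 3.04 in hHKDC1 OE. The groups overlapped in all 3 genes, with null replicate 3 inside the hHKDC1 OE range, and Marco spread most in both groups. Their log2 fold changes were 0.94 ± 0.35 for Cd5l, 1.49 ± 0.57 for Timd4 and 2.41 ± 1.04 for Marco (± standard error), with adjusted p of 0.624, 0.631 and 0.694 (edgeR).

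The C1q genes had their highest values in the same liver library as the Kupffer cell genes. C1qa was 14.3, 27.4 and 45.5 CPM in null liver and 54.4, 38.1 and 29.2 in hHKDC1 OE liver. C1qb was 17.4, 23.5 and 34.8 CPM in null and 69.0, 30.8 and 35.3 in hHKDC1 OE, and C1qc was 14.3, 21.2 and 31.7 in null and 58.9, 28.5 and 30.6 in hHKDC1 OE. Null replicate 1 was the lowest library for each chain, hHKDC1 OE replicate 1 the highest, and the groups overlapped. The log2 fold changes were 0.48 ± 0.37, 0.83 ± 0.33 and 0.81 ± 0.34 (± standard error) for C1qa, C1qb and C1qc, with adjusted p of 0.859, 0.652 and 0.670 (edgeR).

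The liver differences moved with single libraries. hHKDC1 OE replicate 1 was the highest of the 6 liver libraries for all 8 genes, and without it the log2 fold changes of the 8 ranged from 0.21 for C1qa to 0.74 for Marco, with an adjusted p of at least 0.937 (edgeR). Other libraries moved them too, as Marco had 4.12 in place of 2.41 without null replicate 3, and C1qa ran from 0.16 (null replicate 1 left out) to 0.96 (null replicate 3 left out). With replicate 1 as the only hHKDC1 OE library, they ranged from 0.91 for C1qa to 3.67 for Marco, and none passed an adjusted p of 0.05, in a fit whose spread comes from the null libraries alone. Without the filter on low counts, edgeR called 7 of the 8 (all but C1qa), with adjusted p from 5.7e-19 for Marco to 0.00673 for Clec4f, and 1.32% of all 24792 genes tested. DESeq2, the tool of the study's methods, called none of the 8, and 0.352% of the genes it tested as higher.

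**Figure D2:**
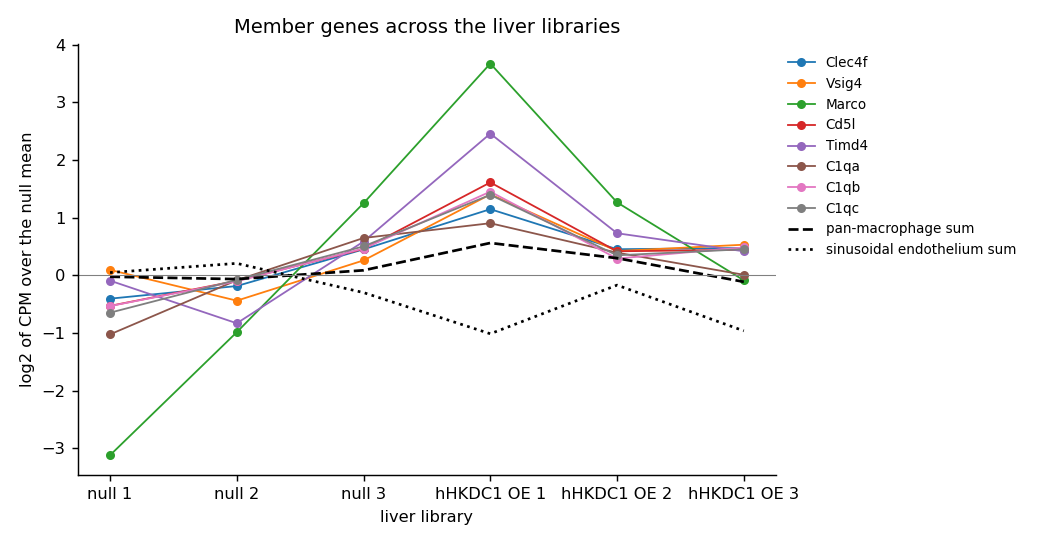
Normalized CPM of each gene in each liver library as log2 of its ratio to the mean of the null libraries, with the sum of 14 pan-macrophage genes (dashed) and of 6 sinusoidal endothelial markers (dotted), the lines only joining the values of a gene. All 8 genes peaked in hHKDC1 OE replicate 1, from 54.4 CPM for C1qa to 122 CPM for Cd5l among the more abundant genes, where the endothelial sum was at its lowest (90.7 CPM).

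Genes shared by macrophages of many tissues gave mixed values in liver. Of 14 pan-macrophage genes, 12 were higher in value in hHKDC1 OE and 2 lower (median log2 fold change 0.53), and none passed the adjusted threshold. Their sum was 327, 318 and 354 CPM in null and 491, 409 and 308 in hHKDC1 OE liver. Among the most abundant were Mpeg1 (0.56), Lyz2 (1.20) and the CSF1 receptor gene Csf1r (0.70), given as log2 fold changes. Set against that sum, which holds none of the members, the 5 Kupffer cell genes came to 24.8, 29.5 and 42.3 in null and 65.2, 36.8 and 48.1 in hHKDC1 OE liver, and the C1q genes to 14.0, 22.6 and 31.7 in null and 37.1, 23.8 and 30.9 in hHKDC1 OE, in CPM per 100 CPM of the sum. Both ratios overlapped between the groups.

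Of 10 other Kupffer cell genes, 9 were higher in value in hHKDC1 OE liver (median log2 fold change 0.30), as were 51.1% of all genes. Of the 10, 0 were called, and 2 were higher at an unadjusted p under 0.05 by edgeR, against 3.89% of all genes. The most abundant were complement C6 (0.46), the iron exporter Slc40a1 (0.02), the liver X receptor gene Nr1h3 (0.03) and Id3 (-0.45), as log2 fold changes. Of 17 other complement genes tested, 12 were higher, with a median of 0.33. C3, C4b, Serping1 and Hc, which hepatocytes secrete, had log2 fold changes of 0.66, 0.60, 0.45 and 0.69 with adjusted p of 0.663 to 0.788 (edgeR). Of 10 other scavenger and efferocytosis genes 3 were higher and 7 lower (median -0.20), and of 10 macrophage transcription factors 6 were higher and 4 lower (median 0.10). The 6 sinusoidal endothelial markers were all lower in value, with sums of 189, 212 and 149 CPM in null and 90.7, 163 and 93.9 in hHKDC1 OE liver. The hepatocyte sum was 121948 to 125130 CPM in null and 84611 to 115783 CPM in hHKDC1 OE liver. The sum of 8 lymph node markers was 3.77, 6.12 and 4.22 CPM in null and 24.4, 8.35 and 5.87 in hHKDC1 OE liver. It was highest in hHKDC1 OE replicate 1, as were all 8 members. Its leading genes Cxcl13 and Siglec1 gave 6.87 and 5.69 CPM of a mean of 12.9 CPM in hHKDC1 OE liver. Their log2 fold changes were 2.69 and 1.16 (adjusted p 0.606 for both, edgeR). Ccl19, Glycam1 and Madcam1 were at 0 in both liver groups, and Ccl21a was 0.949 CPM in null and 0.0711 in hHKDC1 OE (means). Cr2 (0.0837 and 0.0710) was lower in value and Fcer2a (0.0836 and 0.177) higher. Mean B cell sums were 2.20 and 2.43 CPM, and mean T cell sums 5.40 and 3.60. The part of these shifts in the members' values was not tested.

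In fat, Marco, Cd5l and Timd4 were between 13.6 and 92.4 times higher in hHKDC1 OE than in null by the fitted ratio. Marco was 0.912, 1.30 and 1.44 CPM in null fat replicates 1 to 3 and 235, 15.6 and 90.5 in hHKDC1 OE fat. Cd5l was 2.74, 1.74 and 4.76 CPM in null and 59.8, 5.96 and 60.5 in hHKDC1 OE, and Timd4 was 2.86, 1.30 and 1.39 in null and 56.3, 4.25 and 80.0 in hHKDC1 OE. All hHKDC1 OE libraries lay above all null libraries in each gene, and hHKDC1 OE replicate 2 was the lowest of its group, close to the null range for Cd5l and Timd4. The log2 fold changes were 6.53 ± 1.03 for Marco, 3.76 ± 0.87 for Cd5l and 4.66 ± 1.02 for Timd4 (± standard error). With 1 library left out the fold ran from 43.1 (without hHKDC1 OE replicate 1) to 131 (without replicate 2) for Marco, from 10.7 to 19.2 for Cd5l, and from 16.4 (without hHKDC1 OE replicate 3) to 36.5 for Timd4.

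None of these 3 genes passed an adjusted p of 0.05 by the quasi-likelihood test of edgeR, Benjamini-Hochberg adjusted (0.133 for Marco, 0.134 for Cd5l and 0.133 for Timd4), and 0% of the 16380 genes tested did in either direction. At an unadjusted p under 0.05, 5 of the 8 members were higher (Marco, Cd5l, Timd4, C1qa and C1qc) against 11.3% of all genes. In 6 of the 8 the hHKDC1 OE libraries lay above all null libraries, which 12.5% of all genes did. DESeq2 called 4 members higher (6.46% of the genes it tested), with adjusted p of 1.58e-08 for Marco, 3.52e-06 for Cd5l, 0.000438 for Timd4 and 0.0296 for C1qc. Over all settings the adjusted p of Marco ran from 1.58e-08 to 0.407. Without hHKDC1 OE replicate 2, edgeR called the same 4 genes, with adjusted p of 0.00065, 0.00117, 0.00073 and 0.0472, and 18.9% of all 17190 genes tested. With replicate 1 as the only hHKDC1 OE library, the highest fat library for Marco, it called Marco, Cd5l and Timd4, with adjusted p of 0.00192, 0.0139 and 0.0100, and 5.58% of all 18343 genes tested. In that fit the spread comes from the null libraries alone, and the lone library is assumed to vary like them.

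Markers of lymphoid cells moved with these 3 genes across the fat libraries. The sum of 8 B cell markers was 1.88, 2.48 and 3.37 CPM in fat with the null vector and 844, 48.2 and 615 with hHKDC1 OE, and that of 8 T cell markers 6.32, 5.89 and 16.6 in null and 517, 38.8 and 551 in hHKDC1 OE. The sum of 8 lymph node markers (sinus macrophage, stroma, venule and follicle genes, led by the sinus macrophage gene Siglec1) was 22.0 to 30.1 CPM in null, with Ccl19 at 0, and 314, 48.8 and 302 in hHKDC1 OE. Many of these markers are near 0 in null fat and passed the filter on low counts only through the hHKDC1 OE libraries, so no count of them by test is given. hHKDC1 OE replicate 2 was the lowest hHKDC1 OE library in each sum, as it was for Marco, Cd5l and Timd4. Dendritic cell markers summed to 25.7 to 31.9 CPM in null and 149, 42.7 and 171 in hHKDC1 OE, and monocyte markers to 16.9 to 31.1 in null and 97.6, 44.9 and 151 in hHKDC1 OE. The sum of 6 sinusoidal endothelial markers was 60.9, 42.3 and 70.2 CPM in null and 133, 72.3 and 152 in hHKDC1 OE fat. Replicate 2 was again the lowest of hHKDC1 OE. As group means, Dnase1l3 was 5.15 CPM in null and 47.0 in hHKDC1 OE, Fcgr2b 24.6 and 37.0, and Stab2 3.03 and 11.3. Gpr182 was 22.9 and 22.4, and Clec4g (1.44 and 0.955) and Oit3 (0.734 and 0.253) were lower in value. Red blood cell and hepatocyte markers were lower in value. The sum of 5 red blood cell markers was 861, 582 and 793 CPM in null and 239, 440 and 416 in hHKDC1 OE fat, and that of the 10 hepatocyte markers 3807, 4102 and 9991 in null and 3157, 1905 and 2732 in hHKDC1 OE. The part of any of these cells in the values of Marco, Cd5l and Timd4 was not tested.

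**Figure D3:**
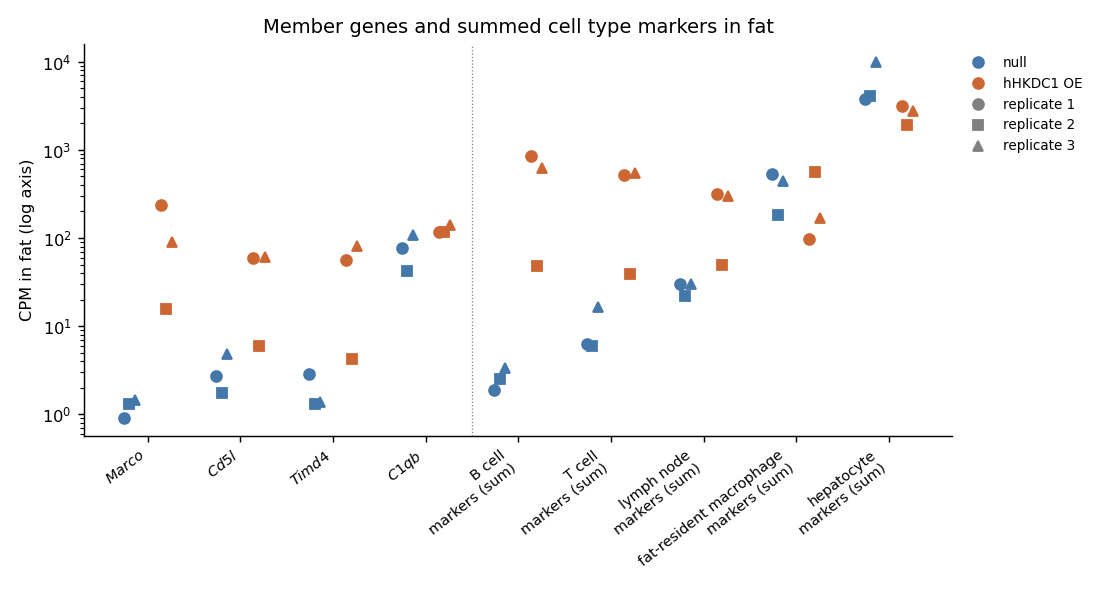
Normalized CPM in each fat library on a log axis for 4 member genes (left of the dotted line) and for summed markers of other cell types (right), null in blue and hHKDC1 OE in orange, with the symbol giving the replicate number. In hHKDC1 OE replicate 2 (squares) Marco, Cd5l and Timd4 were 15.6, 5.96 and 4.25 CPM and the B cell sum 48.2 CPM, the lowest hHKDC1 OE values of each. In the same library C1qb was 117 CPM, and the fat-resident macrophage sum was 561 CPM, the highest of the 6 libraries.

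Clec4f and Vsig4, both low in null fat, gave no difference beyond the spread in fat. Clec4f counts were 29, 9 and 91 with the null vector and 63, 23 and 52 with hHKDC1 OE. Vsig4 had 17, 2 and 33 counts in null and 14, 8 and 18 in hHKDC1 OE. The groups overlapped in both genes, and the log2 fold changes were 0.01 ± 0.78 and -0.45 ± 0.86 (± standard error; adjusted p 0.994 and 0.795, edgeR). Clec4f and the hepatocyte markers were both highest among the null fat libraries in replicate 3. Per 1000 counts of the 10 hepatocyte markers, Clec4f was 0.463, 0.136 and 0.487 in fat with the null vector and 0.945, 0.590 and 1.17 with hHKDC1 OE, against 0.309 to 0.559 (null) and 0.733 to 0.980 (hHKDC1 OE) in liver. The same ratio for Cd5l was 0.423 to 0.719 in null fat and 0.221 to 0.438 in null liver, and 3.13 to 22.1 in hHKDC1 OE fat. These ratios rest in part on Cyp2e1, which gave 1578 of the 5967 CPM of the hepatocyte sum in null fat and 1144 of 2598 in hHKDC1 OE fat, but 10518 of 124066 in null liver (group means), so fat and liver ratios are not on an equal footing. Whether liver RNA contributed to the fat libraries was not tested.

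The C1q genes were higher in value in hHKDC1 OE fat, by less than Marco, Cd5l and Timd4. C1qa was 58.1, 44.1 and 102 CPM in fat with the null vector and 148, 125 and 112 with hHKDC1 OE. C1qb was 77.4, 41.7 and 107 CPM in null and 117, 117 and 141 in hHKDC1 OE, and C1qc was 59.6, 39.6 and 76.3 in null and 106, 99.4 and 127 in hHKDC1 OE. For each chain all hHKDC1 OE values exceeded all null values, with null replicate 3 close below (in FPKM 74.2 against at least 75.1 for C1qa and 74.5 against 74.9 for C1qb), and replicate 2 was not set apart from the other hHKDC1 OE libraries. The log2 fold changes were 0.92 ± 0.31 for C1qa, 0.73 ± 0.32 for C1qb and 0.92 ± 0.25 for C1qc (± standard error). With 1 library left out they ran from 0.64 to 1.31, 0.40 to 1.05 and 0.66 to 1.14, lowest without null replicate 2 and highest without null replicate 3, and by library size alone they were 1.05, 0.86 and 1.06. Their adjusted p was 0.210, 0.292 and 0.148 by the quasi-likelihood test of edgeR, Benjamini-Hochberg adjusted. Summed over the chains, the hHKDC1 OE libraries held 372, 341 and 380 CPM and the null libraries 195, 125 and 285, with a spread of 20.7 and 80.1 CPM (SD, n = 3). In FPKM the same sums were 212, 210 and 211 with hHKDC1 OE and 117, 73.5 and 179 in null, so how closely the hHKDC1 OE libraries match depends on the scaling.

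Of the 14 pan-macrophage genes, 13 were higher in value in hHKDC1 OE fat (median log2 fold change 1.45, against -0.05 over all genes). None passed the adjusted threshold, and 9 were higher at an unadjusted p under 0.05 by edgeR, against 11.3% of all genes. Mertk was lower in value, with a log2 fold change of -1.05. The most abundant, Lyz2, Ctss, Csf1r and Mpeg1, had log2 fold changes of 1.87, 2.81, 0.59 and 1.85. In CPM per 100 CPM of the pan-macrophage sum, C1q came to 35.0, 39.0 and 48.4 in null and 27.0, 42.4 and 20.9 in hHKDC1 OE fat, with replicates 1 and 3 below the null range. The 5 Kupffer cell genes came to 1.67, 1.56 and 2.41 in null and 25.8, 3.41 and 12.9 in hHKDC1 OE. Marco, Cd5l and Timd4 made up this difference, since Clec4f alone came to 0.438 ± 0.343 in null and 0.177 ± 0.0386 in hHKDC1 OE, and Vsig4 to 0.174 ± 0.131 and 0.0525 ± 0.00707 (SD, n = 3), with overlapping ranges. Markers of fat-resident macrophages (Mrc1, Retnla and 5 others) summed to 527, 181 and 446 CPM in null and 98.5, 561 and 167 in hHKDC1 OE fat, so replicate 2 was high where replicates 1 and 3 were low.

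Among 10 other Kupffer cell genes in fat, 7 were higher and 3 lower in value, and 0 were called by edgeR. Their median log2 fold change was 0.48, against -0.05 over all genes. The most abundant were Nr1h3 (-0.06), Id3 (0.56), the haemoglobin scavenger receptor gene Cd163 (-0.60) and the haem oxygenase gene Hmox1 (0.61), as log2 fold changes. The largest was 4.02 for Spic, a transcription factor of iron-recycling macrophages, named after its value was seen. Of 18 other complement genes 9 were higher and 9 lower (median -0.01), and the abundant C4b, C3, Serping1 and C1s1 had log2 fold changes of 0.06, 0.33, -0.22 and -0.29. C1s1, which encodes a protease that associates with C1q, had 235 ± 14.6 CPM in null fat against 193 ± 27.1 with hHKDC1 OE (SD, n = 3). Of 11 scavenger and efferocytosis genes 4 were higher and 7 lower (median -0.10), and of 10 transcription factors 8 were higher and 2 lower (median 0.57). Spic, Cr2, Havcr2 and Tfec, counted as higher in these lists, had only 0.548, 0.426, 0.224 and 0.107 CPM in null fat (means). They passed the filter on low counts through the hHKDC1 OE libraries, so these counts are no test of the lists.

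**Figure D4:**
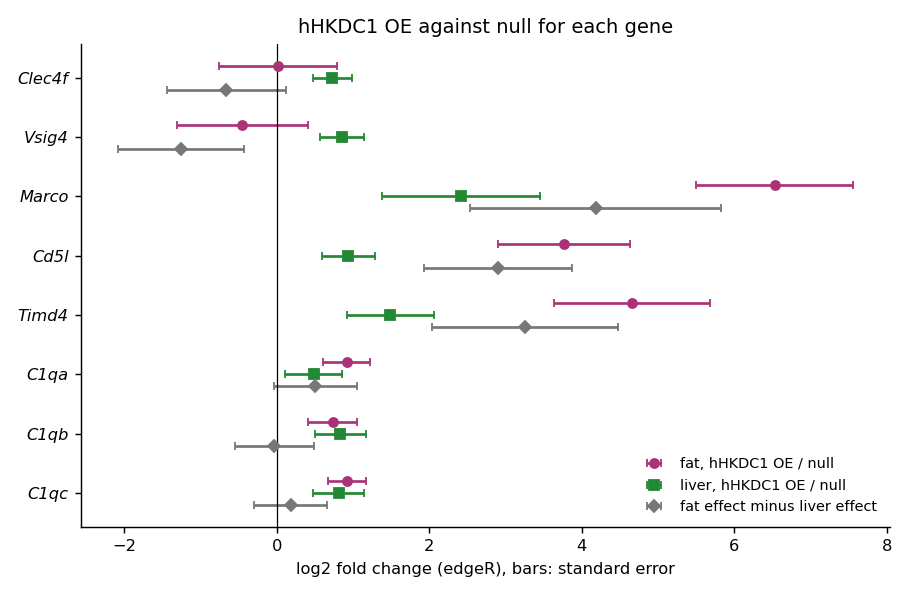
Log2 fold change of each gene from edgeR, for hHKDC1 OE over null in fat (circles) and liver (squares) and for the fat effect minus the liver effect (diamonds), with bars of 1 standard error. Marco (6.53), Timd4 (4.66) and Cd5l (3.76) stand apart in fat, while the C1q genes lie between 0.48 and 0.92 in both tissues.

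The difference between the effect in fat and that in liver was tested over all 12 libraries, where 0% of 17070 genes passed an adjusted p of 0.05 in either direction by the quasi-likelihood test of edgeR, Benjamini-Hochberg adjusted, and 0 of the 8 members did. At an unadjusted p under 0.05, 3 of the 8 had a larger effect in fat, against 9% of all genes. They were Marco, with a difference of 4.18 ± 1.64 on the log2 scale (± standard error; adjusted p 0.314, edgeR), Timd4 with 3.25 ± 1.22 (0.295) and Cd5l with 2.90 ± 0.96 (0.234). For C1qa, C1qb and C1qc the differences were 0.51 ± 0.55, -0.03 ± 0.52 and 0.18 ± 0.48, and for Clec4f and Vsig4 -0.66 ± 0.77 and -1.25 ± 0.83. DESeq2 called 0 of the 8, and 2.35% of the genes it tested as larger in fat. Without fat hHKDC1 OE replicate 2, edgeR called Cd5l and Timd4 (adjusted p 0.00891 and 0.0224) and 6.77% of all 17875 genes tested. Without the filter on low counts it called Marco, Cd5l and Timd4 and 1.53% of all 31243 genes tested.

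The C and B chains of C1q kept a narrow ratio in all 12 libraries. In FPKM, fat held C1qc at 0.402 to 0.534 of C1qb in null mice and at 0.478 to 0.510 in hHKDC1 OE mice. Liver held it at 0.462 to 0.513 and 0.481 to 0.520. C1qa over C1qb varied more, from 0.785 in fat null replicate 1 to 1.37 in liver null replicate 3, with means of 0.962 ± 0.163 (null) and 1.09 ± 0.246 (hHKDC1 OE) in fat, and 1.15 ± 0.263 and 0.995 ± 0.259 in liver (SD, n = 3). C1qa exceeded C1qb in some libraries of each group and lay below it in others, and the groups overlapped in both ratios.

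**Figure D5:**
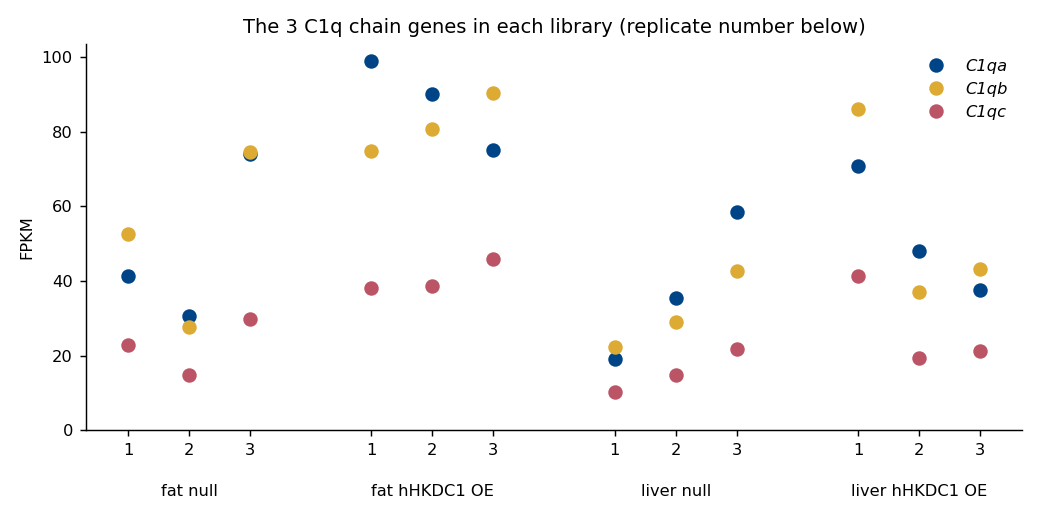
FPKM of C1qa, C1qb and C1qc in each of the 12 libraries, with the replicate number under each and the group below it. C1qc stays at 0.402 to 0.534 of C1qb throughout, C1qa lies above C1qb in some libraries and below it in others, and the sum of the chains is 210 to 212 FPKM in the fat hHKDC1 OE libraries (341 to 380 on the CPM scale).

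Across the 6 fat libraries the members were compared by the Pearson correlation of log2 CPM, which is a description of libraries that share the group difference and their depth. Marco, Cd5l and Timd4 had r of 0.937 to 0.972 with each other, the C1q genes 0.910 to 0.969, and Clec4f with Vsig4 0.912, while Vsig4 with Marco had -0.003. Pairs across these groups of genes reached 0.851 for Cd5l with C1qc, 0.817 for Marco with C1qc and 0.724 for Clec4f with C1qb. Across the 6 liver libraries each pair of the 8 genes had a positive r, from 0.597 for Vsig4 with C1qa to 0.996 for C1qb with Cd5l and with C1qc.

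The genes most like the mean of the C1q genes in fat were Dpp7 (r = 0.993), Ptprj (0.986), Itgax (0.986), Mup15 (0.982) and Banp (0.978), among 11733 genes over 6 libraries. Mup15 belongs to a family of near-identical copies, so its counts are uncertain. In liver they were Sdc3 (0.985), Itgb2 (0.985), Fcgr3 (0.980), Rnf41 (0.975) and Fam25c (0.968), among 9064 genes. Those most like the mean of the Kupffer cell genes in liver were Csf1r (0.995), Ier2 (0.978), Itgb2 (0.977), Itgal (0.976) and Cebpa (0.975). Itgb2 encodes the common beta chain of the leukocyte integrins and was the gene that both liver lists held.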

How the data were processed

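Liver and subcutaneous fat RNA of null and hHKDC1 OE mice was measured in 12 libraries, 3 per tissue and vector, grouped by sample title and treatment. According to the submitters' processing notes, the authors used STAR 2.5 for alignment and HTSeq 0.6.1 for counting, without strand. The deposited counts are whole numbers without normalization. The deposited FPKM are the authors' values, scaled over the 12 libraries, and were used for levels between genes and tissues. The methods name a human genome, but the identifiers are mouse Ensembl genes, 98.0% of them at the same position in GENCODE M21 (GRCm38), whose coordinates are given. The authors' fold changes and p-values for fat, their table of all comparisons and their group means of FPKM were not used.

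From the counts, edgeR's quasi-likelihood test was fitted to the 6 libraries of a comparison (12 for the difference between tissues) with TMM, filterByExpr and Benjamini-Hochberg adjustment over all genes tested. R 4.3.3, edgeR 4.0.16, limma 3.58.1 and DESeq2 1.42.0 were used, and each test was tested on simulated data. CPM were normalized within a tissue. Likeness was Pearson's r of log2(CPM + 0.5) over genes with a mean of at least 5 CPM. The settings tried were DESeq2, upper-quartile factors, library size alone, no filter, all libraries together, a replicate block, limma (log2(FPKM + 1) or log2(FPKM + 0.1), mean FPKM 0.1 or more), and each library left out. The fit with hHKDC1 OE replicate 1 alone was chosen after seeing the data. The members and lists were chosen with earlier results of these data known. From a list, up to 4 genes past an adjusted p of 0.05 were named, smallest p first, and otherwise the 4 with the highest mean CPM. A few genes chosen this way and 1 promoter motif are not reported here. At 15496019 to 19954971 counts per library, a count of 0 allows up to 3, for counting error only. Replicates of a group differed by 21.8 to 173 in chi-square per gene, more than counting error, so none was the same library deposited again, which does not show that they came from separate mice. Protein sequences were not analysed here.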

Additional observations from a re-analysis of the deposited data

How the results depend on the processing

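The count of members past an adjusted p of 0.05 in fat, 0 by edgeR, was 4 with DESeq2, 3 without the filter on low counts, 3 with all 12 libraries in 1 fit and 3 with hHKDC1 OE replicate 1 alone, where 4.84%, 2.69%, 5.13% and 5.58% of all genes were called, and ran from 0 to 4 with 1 library left out (0% to 18.9% of all genes). It stayed at 0 with upper-quartile factors, library size alone and both limma fits. In liver it was 7 without the filter and 0 in all other settings. Between null tissues it was 4 (64.3% of all genes called) and ran from 3 to 5 (36.5% to 74% of all genes), or 3 to 4 with 1 library left out. For the difference between tissues it was 3 without the filter, 0 in the other settings and 0 to 2 with 1 library left out. The cause of these shifts was not tested. Over all genes, edgeR called 0 in fat and 0 in liver, DESeq2 1446 and 94, and edgeR without the filter 803 and 327.

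The sign changed only for values within 1 standard error of 0. Clec4f in fat (0.01) was -0.0386 without the filter and ran from -0.50 to 1.03 with 1 library left out, including -0.22, -0.16 and -0.22. Vsig4 in fat (-0.45) ran from -1.01 to 0.27. C1qa between null tissues (0.30) ran from -0.10 to 0.76, with -0.04 without liver null replicate 1. For the difference between tissues, C1qb (-0.03) was 0.0049 with library size alone, 0.0108 and 0.0071 with the limma fits, and -0.51 to 0.42 with 1 library left out (0.16, 0.02 and 0.15 among them). C1qc (0.18) was -0.47 with hHKDC1 OE replicate 1 alone and -0.22 to 0.60 with 1 library left out, with -0.15, -0.02 and -0.08 among them. Clec4f (-0.66) ran from -1.32 to 0.23.

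Replicate numbers were not taken as pairs, since not every same-numbered pair correlated over 0.1 in its deviations from the group means. The values were 0.011, -0.122 and 0.030 between the vector groups in fat, 0.219, 0.184 and 0.088 in liver, 0.241, 0.028 and 0.139 between null fat and null liver, and 0.003, 0.054 and 0.029 between the hHKDC1 OE tissues. Each library correlated best with its own number in liver (for replicate 3 by 0.088 against 0.086), and all but liver null replicate 2 did so between the null tissues, a hint from the data only. A shared mouse or batch was not tested. With the replicate number as a block, the members called were 0 in fat (1.03% of all genes), 0 in liver (0.127%), 3 between null tissues (65.1%) and 0 for the difference (0%), where C1qb was then 0.0593. Clec4f and Vsig4 had 2 to 91 counts in a fat library, so counting error adds to the spread of these genes, whose standard errors in fat were 0.78 and 0.86. By library size alone the median gene of the fat comparison moved from -0.05 to 0.11.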
